A study of Arabidopsis thaliana with 16 samples.

Results

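AT4G35660 is a protein-coding gene of chromosome 4 of Arabidopsis thaliana, and among the genes that a probe of these arrays names alone it had the strongest rise in gun1. It was chosen by that rise, which is therefore given as a description with no test. Its probe was found through the platform's gene table as the entry that lists exactly 1 gene with this locus: 1 probe of 3439 met the rule, and 0 of the 870 probes that list several genes include it. In all, 692 probes name 1 gene and 1877 list none. The study compared 8 samples of gun1, the gun1-1 mutant in ecotype Columbia 0, which the labels call defective in plastid signaling, with 8 samples of WT, the same ecotype without the mutation. Numbers from 1 to 8 run through both genotypes. The sources used here do not give the tissue, age, growth conditions or treatment, and gun1-1 is a single mutant allele. Whether a number stands for a plant, a pool or a repeat of one preparation is not stated. Every p-value covers only the spread among those of these 16 samples that its test used, and that spread may be technical.

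Plastids report their condition to the nucleus, and nuclear genes for plastid proteins are turned down when plastids are damaged. In gun (genomes uncoupled) mutants this coupling is impaired. GUN1 is a pentatricopeptide repeat protein of the plastid that acts in this pathway. The RefSeq gene table (assembly TAIR10.1) gives AT4G35660 no symbol beyond its locus name and no described function.

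The values are intensities, one per probe and sample, on a linear scale with 0 as the lowest and 100 as the highest value of each sample; the labels do not describe the scaling. Deposited medians lay between 0.216 and 0.259 in gun1 and between 0.130 and 0.157 in WT. At 0 were 193 to 274 probes per gun1 sample and 250 to 451 per WT sample. Both quantities split by number in the same way in both genotypes. Medians in numbers 1, 2, 7 and 8 were 0.251 to 0.259 in gun1 and 0.150 to 0.157 in WT. In numbers 3 to 6 they were 0.216 to 0.224 in gun1 and 0.130 to 0.137 in WT. More probes were at 0 in numbers 3 to 6, with 230 to 274 in gun1 and 402 to 451 in WT. Normalized levels below are after quantile normalization, which gives all samples the same distribution. In deviations from the genotype mean over 3419 probes, the consecutive numbers 1 and 2, 3 and 4, 5 and 6, and 7 and 8 of a genotype correlated with r between -0.00925 and 0.356, against -0.324 to -0.0921 for other numbers, so consecutive samples are not fully independent of each other.

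AT4G35660 was brighter than its sample's median probe in every sample, and far more so in gun1 than in WT. Its deposited intensity in gun1 samples 1 to 8 was 7.09, 7.21, 6.58, 6.03, 6.24, 6.15, 8.13 and 9.02. In WT samples 1 to 8 it was 0.945, 0.825, 0.579, 0.364, 0.753, 0.605, 1.14 and 1.02. The genotypes did not overlap: the lowest gun1 sample, number 4, was 5.27 times the highest WT sample, number 7. Deposited means were 7.06 ± 1.06 in gun1 and 0.779 ± 0.257 in WT (SD, n = 8 each), and normalized means were 7.51 ± 1.10 in gun1 and 0.804 ± 0.227 in WT. The normalized log2 difference, gun1 minus WT, was 3.27 (SE 0.18), a fold of 9.65 between geometric means. No value of this probe lay at the floor of 0.0313 to which dim values were set, so the difference does not depend on that floor.

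**Figure D1:**
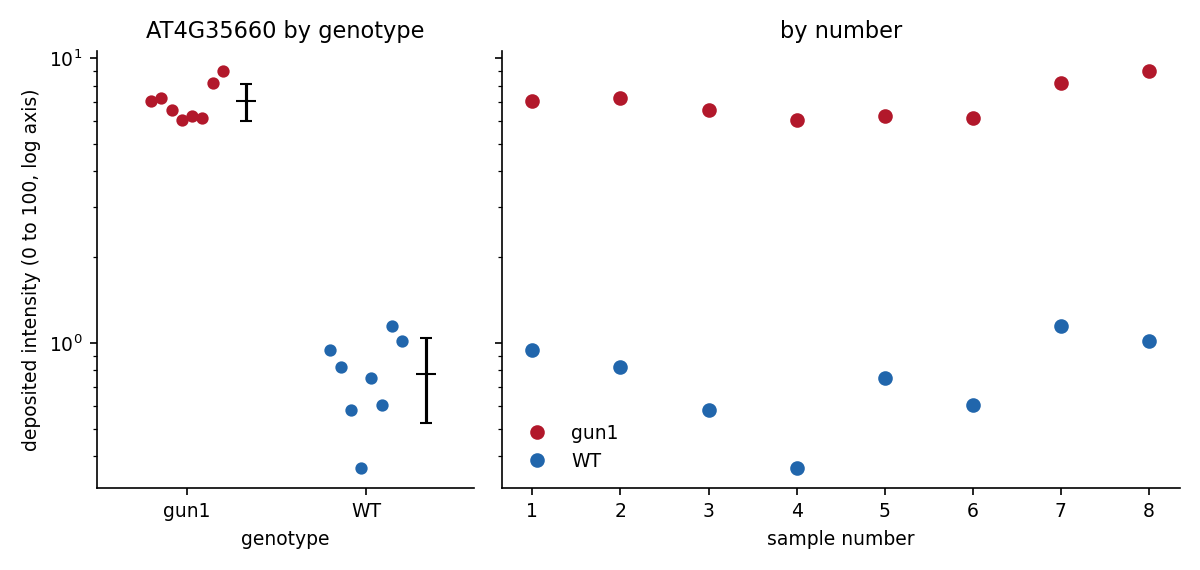
Deposited intensity of AT4G35660 (log axis) in the 8 gun1 and the 8 WT samples, on the left by genotype with the mean and SD beside the points, on the right by sample number. All gun1 points lie between 6.03 and 9.02 and all WT points between 0.364 and 1.14.

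The rise was present within every number, but its size varied. The deposited ratio of gun1 to WT was 7.50 for number 1, 8.74 for 2, 11.4 for 3, 16.6 for 4, 8.28 for 5, 10.2 for 6, 7.11 for 7 and 8.87 for 8. Number 4, with the largest ratio, held the dimmest gun1 sample and the dimmest WT sample. Numbers 7 and 8 had the brightest samples of both genotypes. As deposited, the probe was brighter in each of numbers 1, 2, 7 and 8 than in any of 3 to 6, in both genotypes. Sample medians split in the same way. In the numbers 1 to 6 alone, a choice made after seeing the data, the log2 difference was 3.35.

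How large the rise was depends on how samples are brought to a common scale. Since the median probe was itself brighter in gun1 as deposited, AT4G35660 stood at 29.6 ± 3.004 times its sample's median in gun1 and at 5.38 ± 1.53 times in WT (SD, n = 8 each). The ratio of these means was 5.51, against 9.06 for the deposited intensities. Scaling to a common median gave a log2 difference of 2.52, and over all tested probes the median difference was then -0.18. Unscaled it was 3.25, with a median of 0.41 over all probes, and after quantile normalization that median was -0.05.

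In rank, the probe stood among the brightest few percent of the array in gun1 and well below them in WT. By mean normalized level it was number 58 of 3439 probes in gun1 (1.69%) and number 433 in WT (12.6%). In single samples its rank was between 45 and 67 in gun1, with a median of 60, and between 321 and 854 in WT, with a median of 424. The rank of 854 belonged to WT sample 4, and the next lowest place in WT was 566, in sample 3. Among probes that name 1 gene, 9 were brighter in gun1 and 67 in WT. These are ranks of spot brightness, which depends on the probe as well as on the transcript, so they do not order transcripts by amount.

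**Figure D2:**
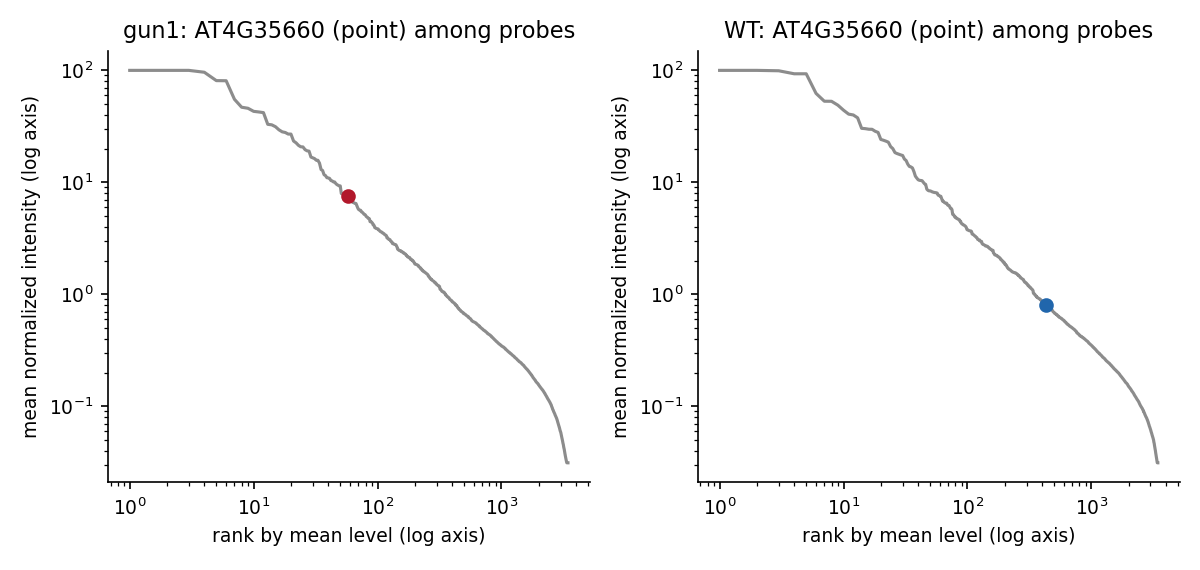
Mean normalized intensity of every probe against its rank (both axes log), gun1 on the left and WT on the right, with AT4G35660 as a point. The gene stands at rank 58 in gun1 and at rank 433 in WT.

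The rise was set beside probes of like brightness. The 100 probes nearest to AT4G35660 in WT level, with geometric means between 0.684 and 0.864, had log2 differences between -2.75 and 0.93, with a median of -0.23. Of these 100, 0 were higher in gun1 by more than 1 on the log2 scale, and 8 were lower by more than 1. Across the 3419 tested probes limma called 1088 different between the genotypes (31.8%), 567 higher and 521 lower in gun1, and in 164 (4.8%) every gun1 sample lay above every WT sample. AT4G35660 is among both, as follows from its choice. Of all probes tested it had the widest gap between the lowest gun1 and the highest WT sample, a ratio of 5.62 in normalized level. This gap and the distance from the 100 probes rest on the values by which the gene was chosen. They are a description and no test. In linear intensity its gain of 6.71 was the 8th largest of all tested probes and the 4th largest of those naming 1 gene.

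**Figure D3:**
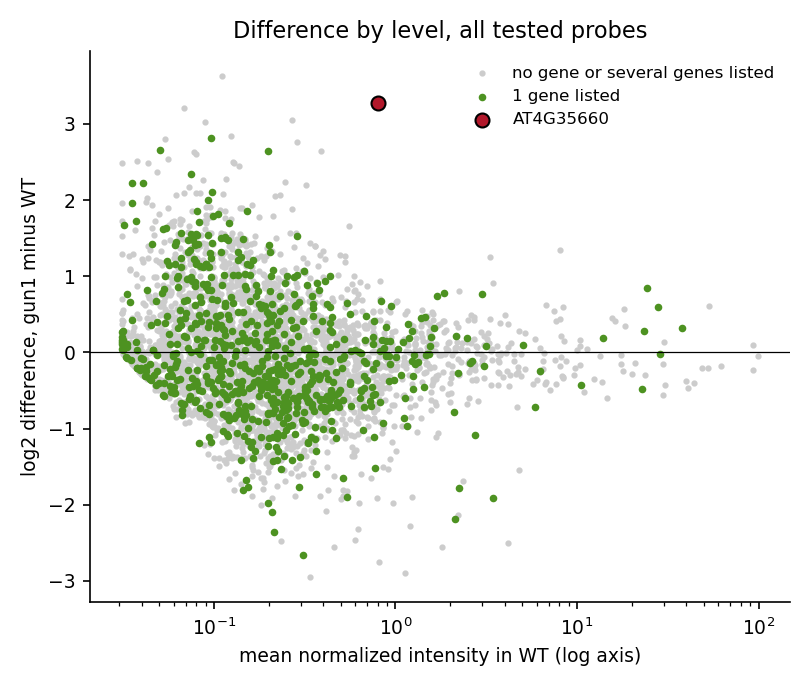
Log2 difference, gun1 minus WT, against the mean normalized intensity in WT (log axis) for each tested probe, coloured by whether 1 gene is listed. AT4G35660, which was chosen by this difference, stands at 3.27, where the 100 probes nearest in WT level reach at most 0.93.

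After quantile normalization 1 probe had a larger log2 difference, 3.63 (SE 0.25), with mean levels of 1.29 in gun1 and 0.110 in WT. It lists 2 genes and is not named here. The next probes that name 1 gene were much dimmer. AT3G18870 ran from 0.539 over a median of 0.603 to 0.803 in gun1, and from 0.0522 over 0.0914 to 0.157 in WT, a log2 difference of 2.82. AT3G11150 followed with 2.66 and AT2G36480 with 2.65, and 2 WT samples of AT3G11150 and 1 of AT2G36480 lay at the floor. The order of these first places rests on the setting. Among probes naming 1 gene, AT4G35660 held place 1 after quantile normalization. It held place 3 for unscaled values, for a common median and for a floor at the 1st percentile. Among all tested probes it held place 2 after quantile normalization. There it held place 11 for unscaled values, 16 for a common median and 9 for a floor at the 1st percentile.

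Within a genotype, the probe varied little in gun1 and moderately in WT. Its coefficient of variation was 14.6% in gun1 and 28.3% in WT. Of the 2017 probes with no sample at the floor, 10.8% varied less in gun1 and 67.4% varied less in WT, and their median was 27.7% in gun1 and 22.0% in WT. Those probes were not matched to it in brightness, so its spread cannot be told apart from its level here. Consecutive numbers were close to each other: within a genotype they differed on average by 0.11 in gun1 and 0.32 in WT on the log2 scale (4 comparisons each), while other numbers differed by 0.24 in gun1 and 0.57 in WT (24 comparisons each). Numbers 7 and 8 averaged 9.08 in gun1 and 1.06 in WT, and numbers 1 to 6 averaged 6.99 in gun1 and 0.718 in WT.

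The rule did not use how the levels of equal numbers go together, so this could be tested. The permutation treats the 8 numbers as independent, while consecutive numbers of this probe were close to each other. All p-values of this paragraph may therefore be too small. Across the 8 numbers the gun1 and WT log2 levels correlated with Pearson's r of 0.693 (exact permutation p = 0.0633, two-sided, adjusted 0.151 over 3 relations) and Spearman's rho of 0.747 (exact permutation p = 0.0397, adjusted 0.119). Without the numbers 7 and 8, which stand apart, r was 0.714 over 6 numbers, and without the 2 numbers farthest from the WT median it was 0.570. The correlation passed the threshold with unscaled values (r of 0.796, adjusted exact p = 0.0408) and after cyclic loess (0.793, adjusted exact p = 0.0401). Unscaled values still carry the brightness of each sample, and sample medians were high in numbers 1, 2, 7 and 8 of both genotypes. The relation to a sample's deposited median, tested in the same family, gave r of 0.611 in gun1 (exact permutation p = 0.101, adjusted 0.151; rho 0.542, p = 0.170, adjusted 0.255; 0.671 without the 2 farthest samples, and 0.623 without the numbers 7 and 8). In WT it gave r of 0.549 (exact permutation p = 0.156, adjusted 0.156; rho 0.429, p = 0.299, adjusted 0.299; 0.761 without the 2 farthest, and 0.343 without the numbers 7 and 8). None of the 3 relations passed after adjustment on normalized values.

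Probes that follow AT4G35660 across the samples of a genotype were sought among 383 that name 1 gene and have no sample at the floor. Over these, Pearson's r with AT4G35660 had a median of -0.13 in gun1 and -0.02 in WT, 7 were above 0.8 in gun1 and 15 in WT, and 3 were above 0.8 in both. The 5 closest in gun1 were AT4G39760 (r of 0.882), AT2G40980 (0.875), LpxA (0.861), AT1G72640 (0.859) and AT4G04370 (0.857). The 5 closest in WT were AT1G72640 (0.939), AT3G47650 (0.921), AT3G54930 (0.918), AT3G54680 (0.901) and AT1G24040 (0.877). LpxA (AT4G29540) is named after the bacterial acyltransferase that opens lipid A synthesis in Escherichia coli. The others carry only locus names in the gene table.

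Each of these 10 choices was then tested in the genotype that had not been used to make it, which is not an independent set of samples, since same-numbered gun1 and WT samples deviated together over all probes (r from 0.143 to 0.421 in the 8 cases). Over the 383 probes, the r with AT4G35660 in gun1 and that in WT themselves correlated at 0.473, and of the 157 probes with a positive r in gun1, 107 (68.2%) had a positive r in WT too. Of the 10 choices, all were positive in the second genotype, 5 had an exact permutation p under 0.05, and 3 passed the adjustment over the 10 tests, 2 of them for the same gene. AT1G72640, chosen in gun1, had r of 0.939 in WT (exact permutation p = 0.000298, adjusted 0.00298; rho 0.929, p = 0.00223, adjusted 0.0223; 0.843 without the 2 farthest samples). Chosen in WT, it had r of 0.859 in gun1 (exact permutation p = 0.00962, adjusted 0.0321; rho 0.855, p = 0.0103, adjusted 0.0516; 0.841 without the 2 farthest). LpxA, chosen in gun1, had r of 0.846 in WT (exact permutation p = 0.00754, adjusted 0.0321; rho 0.786, p = 0.0279, adjusted 0.0931; 0.590 without the 2 farthest). The other 7 had r between 0.447 and 0.763 in the second genotype, with adjusted exact p between 0.0833 and 0.263. The permutation takes account neither of what same-numbered samples share nor of consecutive numbers deviating together, so these p-values may be too small, and they do not show a likeness particular to these genes.

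The 2 genes that passed differ in where the likeness lies. LpxA averaged 0.934 in numbers 7 and 8 of gun1 and 0.160 in the other gun1 samples, and 0.828 in numbers 7 and 8 of WT and 0.232 in the other WT samples. Without those 2 numbers its r was -0.15 in gun1 and 0.801 in WT (6 samples each), so in gun1 the likeness rests on them. The same holds for AT2G40980, with 6.62 in numbers 7 and 8 of gun1 and 0.314 in the others, where r without them was 0.111. In gun1, r without them fell from 0.696 to -0.01 for AT3G54930 and from 0.763 to 0.579 for AT1G24040. For AT1G24040 it was as low as 0.319 with 1 number left out. It fell from 0.603 to 0.394 for AT3G47650 and from 0.447 to 0.255 for AT3G54680. AT4G39760 had 0.707 and AT4G04370 0.749 in gun1 without the numbers 7 and 8. AT1G72640 kept r of 0.841 in gun1 and 0.961 in WT without the numbers 7 and 8. The samples left were also used to choose this gene, in both genotypes, so these values are a description and no test. Its r lay between 0.802 and 0.919 in gun1 and between 0.908 and 0.980 in WT when any 1 number was left out. Its lowest sample was number 4 in both genotypes, as for AT4G35660. When the choice and the test were both repeated in the numbers 1 to 6, 0 of 10 choices passed and 2 of the 10 were shared with those above.

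**Figure D4:**
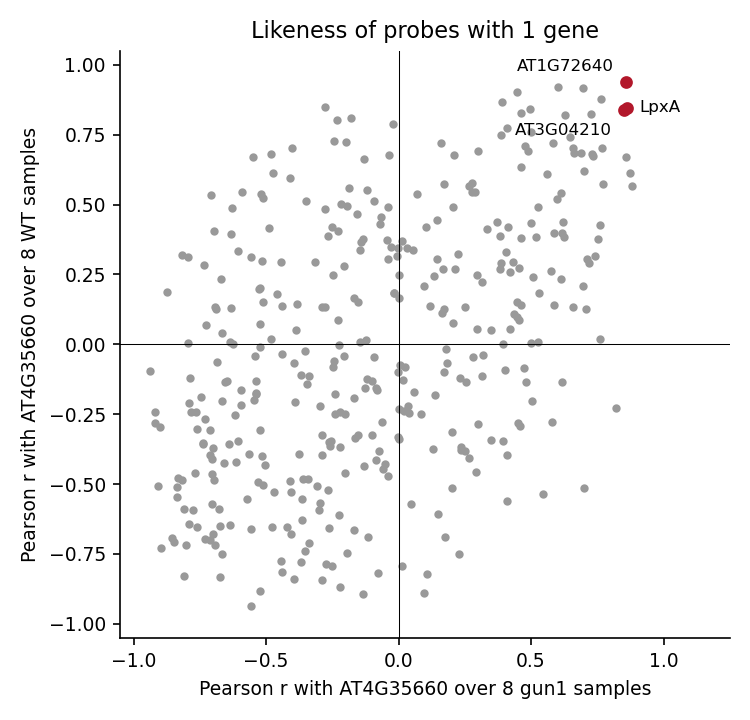
Pearson's r with AT4G35660 over the 8 gun1 samples (x axis) and the 8 WT samples (y axis) for each of 383 probes that name 1 gene and never lie at the floor. The 3 named probes lie above 0.8 in both, AT1G72640 with 0.859 in gun1 and 0.939 in WT.

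AT1G72640 went with AT4G35660 within each genotype, yet differed from it between genotypes. Its level ran from 0.0648 over a median of 0.241 to 0.547 in gun1, and from 0.334 over 0.440 to 0.576 in WT, with overlapping ranges. It fell in gun1 by 1.02 on the log2 scale (SE 0.31, limma adjusted p = 0.0194), lower in 7 of 8 numbers, a call lost with unscaled values (log2 -0.58, adjusted p = 0.174) and with consecutive numbers averaged (adjusted p = 0.0991). Of the 9 distinct genes among the 10 choices, limma called 2 higher and 2 lower in gun1, 44.4%, against 43.9% of the 383 probes searched and 31.8% of all tested. AT3G54930 rose by 1.31 (SE 0.28, adjusted p = 0.00224) and AT3G54680 by 0.82 (SE 0.25, adjusted p = 0.0190), both higher in 8 of 8 numbers, and AT1G24040 fell by 1.02 (SE 0.20, adjusted p = 0.00104), lower in 8 of 8. The calls of AT3G54930 and AT1G24040 held under every alternative run, while that of AT3G54680 was lost with consecutive numbers averaged (adjusted p = 0.0960), with them as a random block (0.0541), after cyclic loess (0.0576) and in the numbers 1 to 6 (0.0654).

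**Figure D5:**
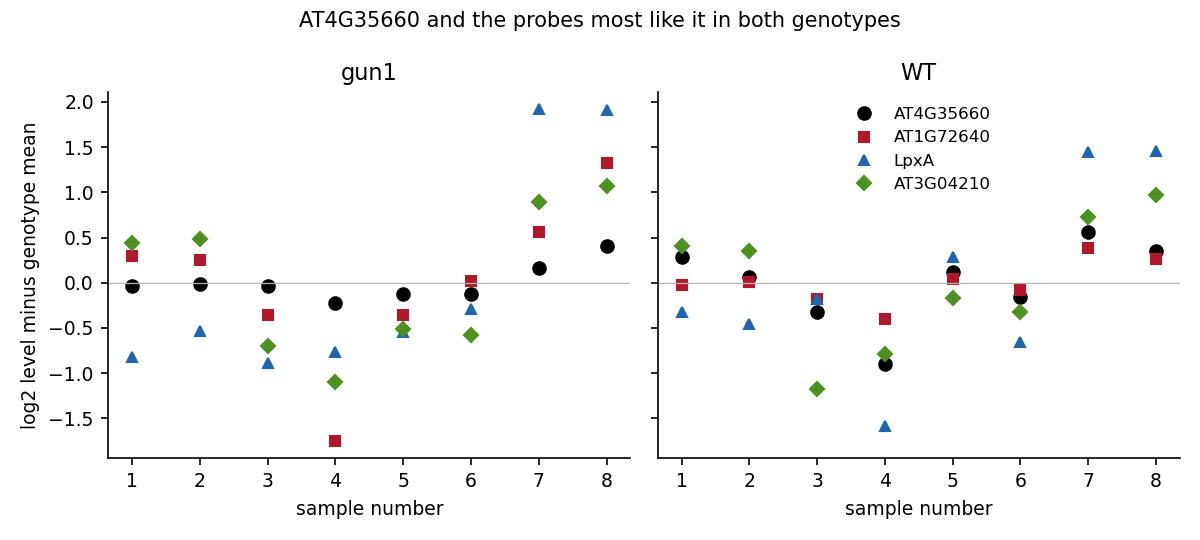
Log2 level minus the genotype mean by sample number, gun1 on the left and WT on the right, for AT4G35660 and the 3 probes with the highest lower r of both genotypes. LpxA stands high in numbers 7 and 8 of both genotypes, AT1G72640 is lowest in number 4 of both, and AT4G35660 spans a narrower range in gun1 than in WT.

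The third probe alike in both genotypes was AT3G04210, with r of 0.853 in gun1 and 0.838 in WT, and without the numbers 7 and 8 r was 0.787 in gun1 and 0.755 in WT. It lay above its genotype mean in numbers 1, 2, 7 and 8 and below it in 3 to 6, in both genotypes. Sample medians split in the same way, and leaving out 7 and 8 does not remove that split. The level of AT3G04210 did not pass the test between genotypes, at 0.889 ± 0.482 in gun1 and 0.890 ± 0.422 in WT (SD, n = 8 each, limma adjusted p = 0.945). At the other end, AT5G26850 ran most strongly opposite in gun1, with r of -0.94, but had -0.09 in WT. AT4G24160 (-0.92) and AT1G50880 (-0.92) were next in gun1, with -0.28 and -0.24 in WT. In WT the lowest were AT3G44050 (-0.94), AT1G13990 (-0.89) and AT4G20300 (-0.89), with -0.56, -0.14 and 0.10 in gun1. These values of the extremes describe how they were picked and were not tested.

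The other strong rises had low or negative correlations with AT4G35660 from sample to sample. Within gun1, r was -0.07 for AT3G18870, -0.82 for AT3G11150 and -0.44 for AT2G36480, and within WT it was -0.38 for AT3G18870, 0.16 for AT3G11150 and 0.10 for AT2G36480. These correlations over 8 samples are given as a description.

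Of the genes placed near it on chromosome 4, 0 were called higher in gun1 after quantile normalization, though 2 were with unscaled values. Over all 3419 tested probes, 567 were called higher after quantile normalization. Whether the neighbours depart from that share was not tested. The 10 nearest loci with a probe of their own, 5 on either side by locus number, lie 40 to 303 genes away in the gene table, so no direct neighbour was measured in this way. Limma called 0 of the 10 higher and 4 lower in gun1 and did not call 6, that is 40.0% called against 31.8% of all probes, with a median log2 difference of -0.51 against -0.05. Of all 120 probes that name 1 gene of chromosome 4, 21 were called higher and 27 lower. That is also 40.0% called, with a median log2 difference of -0.14. The neighbours were drawn from these probes, so their share called was no higher than that of their class. AT4G33760 fell by 1.90 (SE 0.21, limma adjusted p = 4.43e-06), without overlap between genotypes. AT4G37420 fell by 1.43 (adjusted p = 0.0368, 4 gun1 samples at the floor), AT4G38040 by 1.13 (adjusted p = 0.0188, 1 gun1 sample at the floor) and AT4G33540 by 0.62 (adjusted p = 0.0453, but 0.0863 with a block for the number). Only the call of AT4G33760 held under every alternative run; the other 3 were lost with unscaled values (adjusted p = 0.201, 0.417 and 0.603), among other settings. The nearest, AT4G35980, had 0.129 ± 0.0478 in gun1 and 0.177 ± 0.0824 in WT (SD, n = 8 each; log2 -0.40, adjusted p = 0.412). The highest was AT4G33480 at 0.62 (adjusted p = 0.280). The number called was 2 in the numbers 1 to 6, and it was 1 with consecutive numbers averaged or taken as a random block. Over all probes, 853 of 3410 were called in the numbers 1 to 6. With consecutive numbers averaged it was 592 of 3419, and with the random block 733 of 3419. With unscaled values the median of the 10 was 0.20, where that of all probes was 0.41. AT4G33480 (log2 1.45, limma adjusted p = 0.0183) and AT4G34310 (log2 1.41, limma adjusted p = 0.00809) were then called higher. Over all probes, 1425 of 3421 were called with unscaled values, and 85.5% of these calls were higher in gun1.

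The plastid signaling genes GUN1, HY1, HY2, GUN4, CHLH, HEMA1, ABI4, GLK1 and GLK2 have no probe that names any of them alone, 0 of 9. AT4G35660 could therefore not be set beside them, and GUN1 was not measured by a probe of its own. The mutation itself was not checked. All 7 genes listed for photosynthetic tissue had a probe, and their summed normalized level was between 88.2 and 111 in gun1 and between 74.5 and 91.7 in WT. Most of that sum came from the probes of PSBW, LHB1B2 and PSAN, while CHLM averaged only 0.188 in gun1 and 0.276 in WT, and SBPASE 0.317 in gun1 and 0.444 in WT. Of the 7, PSBW, a subunit of photosystem II, was called higher (log2 0.32, limma adjusted p = 0.0371), but not with a block for the number (adjusted p = 0.0646), and its direction turned with a common median (log2 -0.25). SBPASE, a Calvin cycle phosphatase, was called lower (-0.51, adjusted p = 0.0138), though not unscaled (adjusted p = 0.483), and 5 were not called. Of all tested probes, 31.8% were called. With a common median the other 5, PSAN, PSBY, CHLM, LHB1B2 and PRK, were called lower. In that setting 1551 of 3422 probes were called, and only 34.2% of these calls were higher in gun1. Whether the 5 depart from that background was not tested. The 9 genes listed for seed, senescent leaf and pollen had 0 probes, so the part of such tissues in the level of AT4G35660 was not tested.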

How the data were processed

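Arrays of 3439 probes gave 1 intensity per probe for each of 16 samples, 8 gun1 and 8 WT, grouped by their titles. The deposited intensity values are linear and run from 0 to 100 in each sample, with 2 probes at 100 in all 16; what the authors did to make them is not given in the sources used here. The number of arrays limits the precision.

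Quantile normalization (limma 3.58.1, R 4.3.3) was followed by a floor of 0.0313, the 5th percentile of the positive values, which replaced lower values and deposited zeros before log2. Left out were 20 constant probes. The difference gun1 minus WT was fitted over 3419 probes with lmFit and eBayes, two-sided, with Benjamini-Hochberg adjustment at 0.05; a probe past it is called. Probes were named through the platform's gene table where it lists 1 gene, and 690 of 692 matched the RefSeq table by gene number. Correlations across samples were tested by exact permutation over all pairings, which can give no p below 4.96e-05 with 8 samples. Means and ratios were computed with Python 3.11.15.

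The gene, lists and tests were chosen with earlier results of these data known. The genes named are AT4G35660, the next 3 by log2 difference, the 5 most and 3 least like it in each genotype, the 3 most like it in both, 10 neighbours and the listed markers; the DUF241 family, also listed, was not analysed here. Alternatives changed scaling, floor, dim-probe filter, block, consecutive numbers and single samples. The numbers pair the samples by the data alone: deviations of same-numbered gun1 and WT samples correlated in all 8 cases, with r from 0.143 to 0.421. The procedures were tested on simulated data.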

Additional observations from a re-analysis of the deposited data

Results flagged for a closer look

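Each group of 8 samples was searched for a single value far from the rest, for the genes named, in normalized level. Of 74 groups, from 37 genes, 5 held such a sample, and chance flags about 1 in 20. AT4G35660 held none in either genotype. AT1G24040, one of the probes that follow it in WT, stood at 0.561 in gun1 replicate 8 against a median of 0.287 in the other gun1 samples, and this is also the brightest gun1 sample of AT4G35660. AT4G24160, among the probes least like it in gun1, stood at 0.298 in WT replicate 6 against a median of 0.0862 in the other WT samples. The other 3 are neighbours on chromosome 4: AT4G33760 at 0.323 in gun1 replicate 5 (0.130 in the others), AT4G34310 at 0.328 in gun1 replicate 2 (0.112 in the others) and AT4G37230 at 0.183 in WT replicate 3 (0.0424 in the others). The cause was not tested.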

How the results depend on the processing

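The log2 difference of AT4G35660 was 2.52 with a common median, 3.25 unscaled, and between 3.14 and 3.35 when any 1 sample was left out; the replicate block left it at 3.27. Its rank by mean level was between 55 and 59 in gun1 and between 404 and 468 in WT with 1 sample of that genotype left out. The count of 1088 called probes rose to 1551 of 3422 with a common median and to 1425 of 3421 unscaled. It was 592 with consecutive numbers averaged, 733 with them as a random block and 853 in the numbers 1 to 6. Without any 1 sample it was between 996 and 1062, and the replicate block gave 1293. Calls higher in gun1 made up 52.1% of the total, 34.2% with a common median and 85.5% unscaled. Of the 10 neighbours, 4 were called; 2 were with the floor at the 1st percentile and in the numbers 1 to 6, 1 with consecutive numbers averaged or as a random block, and between 2 and 4 without any 1 sample, with 2 when gun1 replicate 1 or 2 or WT replicate 2, 3 or 4 was left out. The same-number correlation of 0.693 lay between 0.612 and 0.809 without any 1 number, and passed only unscaled (0.796) and after cyclic loess (0.793). The correlation with the sample median in gun1 also passed only there (0.778 and 0.784), and lay between 0.559 and 0.697 without any 1 number. In WT the range was 0.482 to 0.699. With unscaled values a sample's brightness enters both the probe and the median, so a positive r is partly built in. Of the 10 probes tested in the other genotype, 3 passed; 1 did with a common median, 5 after cyclic loess, 4 unscaled, 0 without the numbers 7 and 8, and between 0 and 3 without any 1 number, with 1 when number 1, 3 or 5 and 0 when number 8 was left out. The number of arrays limits what these settings can separate; other causes were not tested. The block ended the calls of AT4G33540 and PSBW and changed no other call among the probes that follow AT4G35660, its neighbours and the listed markers. AT4G33540 and AT4G37420 also lost their calls without most or several single samples (adjusted p from 0.0521 to 0.0838 and from 0.0539 to 0.0728), and PSBW did without gun1 replicate 3, 4 or 8 or WT replicate 3, 4, 5 or 6 (0.0576 to 0.0700). With a common median the log2 difference turned to -0.56 for AT3G47650, -0.64 for PSAN and -0.25 for PSBW.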
